A study of Mus musculus with 20 samples.

Results

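The set described here is 39 genes stimulated by type I interferon, measured in mouse skin with and without interleukin-23 (IL-23) and under 2 oligonucleotide antagonists of Toll-like receptors (TLRs). A gene entered through every probe-set of the array (a group of short probes against 1 transcript) that the array annotation gives to that symbol alone, and the probe-set with the highest mean over the 20 arrays stood for the gene. By this rule 36 of the 39 genes were measured, through 61 of the 45101 probe-sets, while Isg15 shared its probe-set with another gene and Oas1g and Ifi44 had none listed. All 36 passed the filter on low values, as did 30960 probe-sets of the whole array.

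Skin of 20 female C57BL/6 mice, 6 weeks old when bought and housed for 1 week before the start, was profiled in 4 groups of 5, with 1 array per mouse. Dorsal skin of the first 3 groups received 3 µg of murine IL-23 intradermally each day from day 1 to day 4, and the mice of these groups were given, under the skin away from the lesion on days 4, 5 and 6, IMO-8400 at 15 mg/kg (an antagonist of TLR7, TLR8 and TLR9), IMO-3100 at 15 mg/kg (an antagonist of TLR7 and TLR9) or saline. The fourth group was naïve, and skin was collected on day 7. GEO's design text has 2 dose levels of a single antagonist, whereas the sample labels name both compounds, and the labels were followed. The sources used here do not say whether naïve mice received control injections, so IL-23 and its injection cannot be told apart in a comparison with naïve skin. No mice with an antagonist but without IL-23 were analysed here, and short-term IL-23 injection models part of psoriatic inflammation only.

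Type I interferons are cytokines that bind a receptor made of IFNAR1 and IFNAR2, whose kinases JAK1 and TYK2 phosphorylate STAT2. With IRF9 it is part of a complex that binds interferon-stimulated response elements and switches on antiviral genes. TLR7 and TLR9 are endosomal nucleic acid sensors through which plasmacytoid dendritic cells and other cells make type I interferon, a route known from work on psoriatic skin.

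The promoters of some members hold the response element. The response element core was searched as GAAANNGAAA on both strands (its reverse complement is TTTCNNTTTC) in the 250 bases before each RefSeq gene start (GRCm38.p6). Of the 29 members with a promoter entry, 10 held it (34.5%), against 936 of 27025 genes (3.46%) and 2.98% of all 32851 windows. The windows of 5 members are printed on the strand of the gene, 5′ to 3′, with the matches in capitals: Ifit1 and Ifit3, antiviral genes with a pair of separate matches each, Oas1a and Bst2, in which matches overlap, and Stat2, a subunit of the complex and 1 of the 2 members called lower under IMO-8400. A match is a description of the letters and not a tested binding site.
Ifit1, chr19:34640770-34640828, plus strand: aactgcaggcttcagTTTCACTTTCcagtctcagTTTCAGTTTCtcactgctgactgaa
Ifit3, chr19:34583358-34583431, plus strand: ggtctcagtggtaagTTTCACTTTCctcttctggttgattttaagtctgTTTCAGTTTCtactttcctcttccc
Oas1a, chr5:120907526-120907560, minus strand: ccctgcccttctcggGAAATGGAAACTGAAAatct
Bst2, chr8:71537572-71537617, minus strand: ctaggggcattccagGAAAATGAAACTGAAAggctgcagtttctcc
Stat2, chr10:128270261-128270300, plus strand: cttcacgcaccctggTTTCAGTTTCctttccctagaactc

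Values were deposited as GCRMA log2 expression, on which a difference of 1 is a 2-fold change, with a floor at 2.02 and array medians between 6.09 and 6.29. Arrays carry no read depth, so their number limits the precision. A probe-set was called when its fold change (FCH) exceeded 2 at a false discovery rate (FDR) below 0.05 in limma, with p-values adjusted over all 30960 probe-sets. Markers of keratinocytes (list means between 13.70 and 14.13) and of fibroblasts (between 13.41 and 14.23) were high on every array, as the label skin calls for. The naïve mice were not alike: the mean over 11 hair shaft and follicle genes was 13.32, 12.02, 9.72, 4.77 and 3.39 in naïve replicates 16 to 20. The same mean was 6.71 in IMO-8400 replicate 5 and lay between 2.63 and 2.90 in all other IL-23-injected mice, and all 11 genes were called lower in saline than in naïve skin.

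With IL-23 and saline the interferon-stimulated genes were higher than in naïve skin as a group. All 36 members had a positive log2 fold change and 25 of the 36 were called higher, none lower, beside 7.58% of all tested probe-sets called higher and 8.92% called lower. The median log2 fold change was 1.36 over the members and -0.04 over all tested probe-sets, and members ranged from 0.23 (Ifi27l2a) to 2.93 (Oasl1). At the FDR alone 30 members passed, and 34 had an unadjusted limma p under 0.05. Shares of all tested probe-sets at these looser limits are not given, here or in the later comparisons. Over all 61 probe-sets, of which 60 passed the filter, 39 were called higher. All saline mice lay above all naïve mice in 7 of 36 members (Irf7, Uba7, Ddx58, Zbp1, Bst2, Ifi47 and Epsti1), beside 11.7% of all tested probe-sets.

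**Figure D1:**
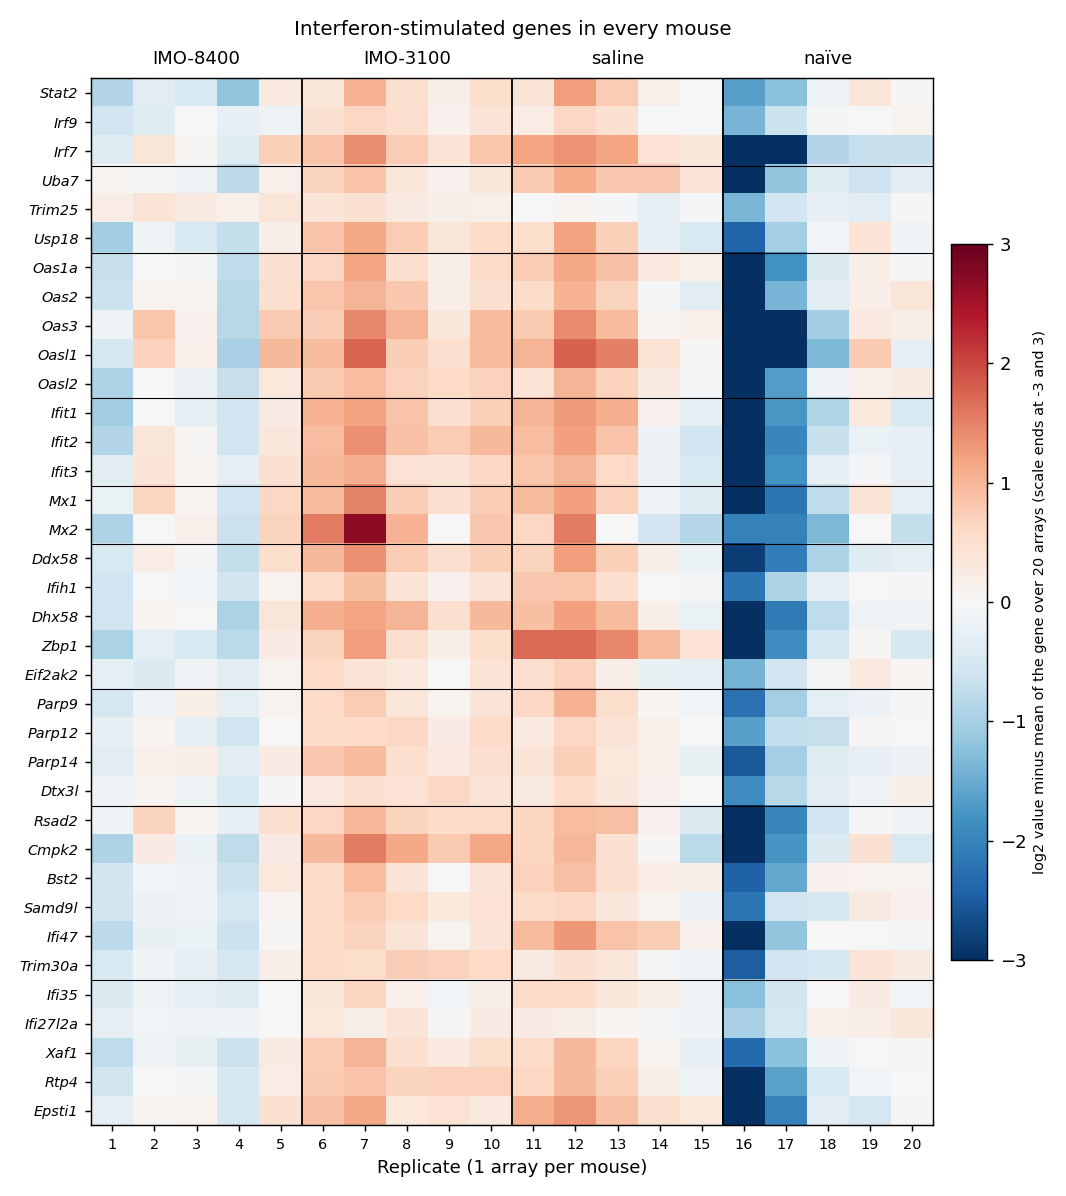
Expression of the 36 members (rows, in the order of their roles) in the 20 mice (columns, in the order IMO-8400, IMO-3100, saline and naïve), as the log2 value minus the gene's mean over all arrays. Naïve replicates 16 and 17 are low for nearly every gene, and the 5 IMO-3100 mice form the most uniform block of high values.

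The distance from naïve skin rested in good part on 2 naïve mice. Naïve replicate 16 was the lowest naïve mouse in all 36 members, and replicates 16 and 17 lay below the lowest saline mouse in 36 of 36, replicate 18 in 28 and replicates 19 and 20 in 11 each. The mean over the 36 members was 12.12, 12.45, 12.09, 11.58 and 11.33 in the saline mice, against 8.64, 9.95, 11.01, 11.49 and 11.36 in the naïve mice, so the 3 naïve mice with the highest hair gene means had the 3 lowest means of the interferon-stimulated genes. Without naïve replicates 16 and 17, left out because earlier results of these data had set them apart, 5 of 36 members were called higher in saline skin (Irf7 by 1.65, Uba7 by 1.23, Ddx58 by 1.05, Zbp1 by 1.56 and Epsti1 by 1.09 on the log2 scale), beside 6.78% of all tested probe-sets, and the median fell to 0.54. In that fit 35 of 36 members stayed positive and 28 had less than 50% of their log2 fold change over all 5 naïve mice. Fitted in limma with the hair gene mean as a covariate, no member was called higher, beside 6.49% of all tested probe-sets, 2 had an unadjusted p under 0.05, 30 were positive and the median was 0.23. The hair gene mean did not overlap between the saline mice (2.64 to 2.82) and the naïve mice (3.39 to 13.32). This fit can therefore separate group and hair genes only in part. On the saline and naïve groups alone 7 of 36 members were called higher, beside 6.47%. What part hair cycle stage has in the difference was not tested.

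**Figure D2:**
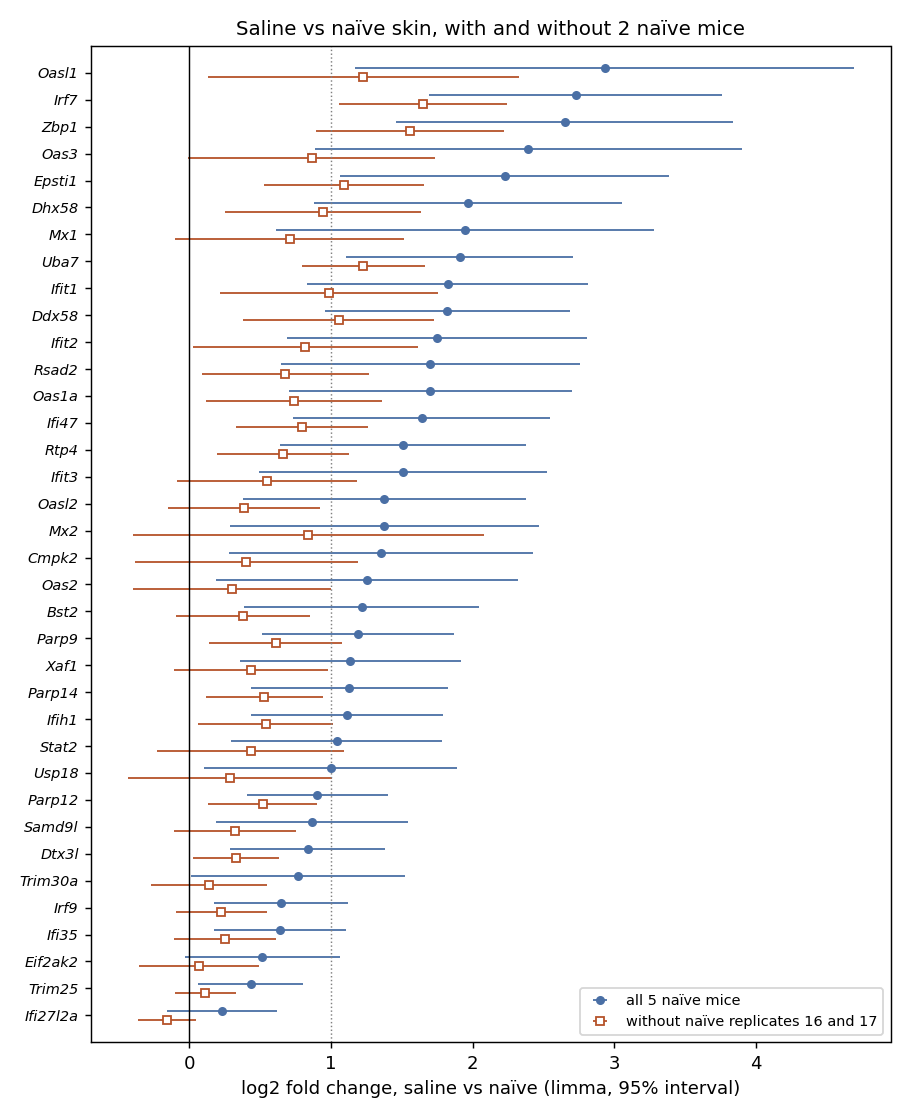
Log2 fold change of each member between saline and naïve skin, with all 5 naïve mice (filled circles) and without naïve replicates 16 and 17 (open squares), with a dotted line at a 2-fold change. All 36 circles lie right of 0, and most squares lie nearer to 0 than their circles.

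Markers of several immune cell types moved with the members. The mean over 6 macrophage markers was between 12.10 and 12.56 in the saline mice, against 8.78, 10.22, 11.16, 11.60 and 11.86 in naïve replicates 16 to 20, and 4 of the 6 markers were called higher. The mean over 6 T cell markers was between 10.09 and 10.54 in the saline mice, against 6.35 to 8.91 in the naïve mice, with 5 of 6 called higher. Of the other immune lists, 3 of 3 neutrophil genes (means 7.71 to 9.12 in the saline mice, against 2.76 to 4.73 in the naïve mice), 4 of 5 genes of NK and cytotoxic cells (9.86 to 11.19, against 4.96 to 7.82) and 4 of 4 B cell genes (5.40 to 6.95, against 3.10 to 4.11) were called higher. Their median log2 fold changes were 4.70, 3.31 and 3.37. The B cell means are over 5 measured genes, since they include Cd79a, which was near background on all arrays and was not tested. In the other direction 4 of 4 adipocyte genes and 5 of 6 melanocyte genes were called lower, with medians of -2.17 and -4.22. The mean over 6 plasmacytoid dendritic cell markers was between 7.68 and 8.05 in the saline mice, against 6.56 to 7.67 in the naïve mice. These markers did not move alike: 2 of 6 were called higher (Siglech and Ccr9), 4 were positive and 2 negative (Cox6a2 and Tcf4). Siglech lay between 4.97 and 6.03 in the saline mice, against 2.33 to 5.47 in the naïve mice. Ccr9 lay between 7.75 and 8.11 in the saline mice, against 4.33 to 6.94 in the naïve mice. The log2 fold changes of the 6 markers ran from -0.65 to 1.63, and Pacsin1 lay near background on all arrays. In bulk skin fewer cells of a type and less RNA per cell cannot be told apart, and the part of these cells in the members' difference was not tested.

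Of the 3 signalling factors, Irf7 and Stat2 were called higher in saline than in naïve skin. Irf7 (1417244_a_at), the factor that amplifies interferon production, had 11.55, 12.30, 11.96, 11.57 and 12.63 in the IMO-8400 mice, 12.78, 13.31, 12.70, 12.33 and 12.75 in the IMO-3100 mice, 13.11, 13.26, 13.11, 12.37 and 12.27 in the saline mice and 8.30, 8.67, 11.05, 11.22 and 11.25 in the naïve mice. All saline mice lay above all naïve mice, and so did all IMO-8400 and all IMO-3100 mice. Its log2 fold change in saline skin was 2.73 (SE 0.49, adjusted p = 0.000264), and it stayed called whichever single mouse was left out.

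Stat2 (1421911_at), the partner of IRF9 in the factor that binds the response element, was at 9.06, 9.62, 9.47, 8.74 and 10.23 in the IMO-8400 mice, 10.28, 10.97, 10.40, 10.14 and 10.45 in the IMO-3100 mice, 10.31, 11.19, 10.70, 10.09 and 9.94 in the saline mice and 8.31, 8.69, 9.77, 10.30 and 9.97 in the naïve mice. Naïve replicates 16 and 17 were below every other mouse, whereas naïve replicates 19 and 20 lay within the saline range. Stat2 was higher by 1.04 (SE 0.35, adjusted p = 0.0237) in saline skin, and its second probe-set was higher by 1.47 (adjusted p = 0.012). Irf9 (1421322_a_at), the DNA-binding subunit of that factor, read 10.05, 10.26, 10.60, 10.37 and 10.46 in the IMO-8400 mice, 11.07, 11.23, 11.13, 10.76 and 11.02 in the IMO-3100 mice, 10.84, 11.23, 11.07, 10.60 and 10.61 in the saline mice and 9.22, 9.97, 10.58, 10.64 and 10.73 in the naïve mice. Naïve replicates 19 and 20 again lay within the saline range. Irf9 passed the FDR but not the 2-fold limit in saline skin, with a log2 fold change of 0.65 (SE 0.23, adjusted p = 0.0271).

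The enzymes of ISG15, an interferon-induced small protein that is attached to other proteins, differed among themselves. Uba7, which activates ISG15, was called higher in saline skin by 1.91 (SE 0.38, adjusted p = 0.000643). Usp18 (1418191_at), which removes ISG15 and also dampens receptor signalling, measured 10.47, 11.39, 11.06, 10.80 and 11.68 in the IMO-8400 mice, 12.39, 12.69, 12.28, 11.89 and 12.07 in the IMO-3100 mice, 12.04, 12.73, 12.23, 11.27 and 11.05 in the saline mice and 9.11, 10.50, 11.43, 11.92 and 11.39 in the naïve mice. Naïve replicates 18, 19 and 20 lay inside the saline range, and the difference missed the threshold at 1.00 (SE 0.42, adjusted p = 0.0638).

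Trim25 (1419879_s_at), a ubiquitin ligase that acts on the RNA sensor RIG-I, had 13.25, 13.40, 13.28, 13.16 and 13.37 in the IMO-8400 mice, 13.40, 13.47, 13.28, 13.20 and 13.16 in the IMO-3100 mice, 13.02, 13.06, 12.97, 12.71 and 12.97 in the saline mice and 11.64, 12.43, 12.77, 12.69 and 13.04 in the naïve mice. Here the IMO-8400 mice all lay above the saline mice, as did the IMO-3100 mice, which no other member showed for both antagonists. Its 3 probe-sets disagreed: in saline against naïve skin 2 had log2 fold changes of 0.43 and did not reach the threshold (0.43 with adjusted p = 0.056 for the one with the highest mean), while the last was 2.49 (adjusted p = 2.39e-05). In IMO-8400 against saline skin the same 3 were 0.34, 0.38 and -1.26 (adjusted p = 0.0119 for the last), so no direction is given for Trim25. The probe-set with the highest mean has a name in s_at, Affymetrix's mark for probes that can match more than 1 gene.

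Among the 5 oligoadenylate synthetases and their relatives, which sense double-stranded RNA and in part activate RNase L, 4 were called higher in saline skin (median log2 fold change 1.70). Oas1a (1424775_at) was at 11.36, 12.06, 12.03, 11.30 and 12.52 in the IMO-8400 mice, 12.68, 13.24, 12.56, 12.24 and 12.62 in the IMO-3100 mice, 12.83, 13.21, 12.94, 12.34 and 12.20 in the saline mice and 8.90, 10.23, 11.65, 12.23 and 12.02 in the naïve mice. Naïve replicate 19 lay just above the lowest saline mouse, and the difference was 1.70 (SE 0.48, adjusted p = 0.00758). Oasl1 (1424339_at), an OAS relative that restrains IRF7 translation, read 9.59, 10.81, 10.27, 9.16 and 11.09 in the IMO-8400 mice, 11.07, 11.87, 10.86, 10.62 and 11.07 in the IMO-3100 mice, 11.15, 11.89, 11.65, 10.53 and 10.16 in the saline mice and 4.45, 6.72, 8.79, 10.91 and 9.84 in the naïve mice. Oasl1 had the widest naïve range of the 36 members, and naïve replicate 19 was above saline replicates 14 and 15. It had the highest log2 fold change of all members at 2.93 (SE 0.84, adjusted p = 0.0087), 7.63-fold. Oasl2 (1453196_a_at), an OAS-like protein with ubiquitin-like domains, measured 10.46, 11.38, 11.21, 10.70 and 11.70 in the IMO-8400 mice, 12.17, 12.32, 12.08, 12.00 and 12.07 in the IMO-3100 mice, 11.80, 12.41, 12.10, 11.67 and 11.35 in the saline mice and 8.28, 9.72, 11.24, 11.55 and 11.65 in the naïve mice. Oasl2 was higher by 1.38 (SE 0.48, adjusted p = 0.0249), with naïve replicates 19 and 20 inside the saline range. Of the other synthetases Oas3 was called at 2.39 (SE 0.72, adjusted p = 0.0116) and Oas2 was not at 1.26 (SE 0.51, adjusted p = 0.0518).

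All 3 IFIT genes, whose proteins bind foreign RNA and block its translation, were called higher in saline skin (median 1.75). Ifit2 (1418293_at) had 11.10, 12.36, 12.02, 11.39 and 12.34 in the IMO-8400 mice, 12.92, 13.36, 12.86, 12.76 and 12.96 in the IMO-3100 mice, 12.92, 13.22, 12.84, 11.80 and 11.41 in the saline mice and 8.58, 10.02, 11.33, 11.79 and 11.74 in the naïve mice. Ifit3 (1449025_at) was at 12.80, 13.50, 13.22, 12.88 and 13.58 in the IMO-8400 mice, 14.11, 14.20, 13.56, 13.51 and 13.75 in the IMO-3100 mice, 13.94, 14.15, 13.72, 12.94 and 12.66 in the saline mice and 9.77, 11.30, 12.88, 13.06 and 12.86 in the naïve mice. In both genes the saline mice fell into 3 high and 2 low values, with replicates 14 and 15 near the upper naïve mice. The log2 fold change was 1.75 (SE 0.50, adjusted p = 0.00922) for Ifit2 and 1.51 (SE 0.49, adjusted p = 0.0173) for Ifit3. Ifit1 (1450783_at), whose promoter with a pair of matches is printed above, read 10.30, 11.35, 11.06, 10.75 and 11.57 in the IMO-8400 mice, 12.38, 12.55, 12.20, 11.85 and 12.05 in the IMO-3100 mice, 12.34, 12.61, 12.40, 11.45 and 11.07 in the saline mice and 8.19, 9.59, 10.43, 11.66 and 10.88 in the naïve mice. It was higher in saline skin by 1.82 (SE 0.47, adjusted p = 0.00456), and naïve replicate 19 overlapped the saline mice.

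Both Mx genes, of an interferon-induced family of GTPases, were called higher in saline skin. Mx1 (1451905_a_at) measured 11.58, 12.43, 11.85, 11.16 and 12.39 in the IMO-8400 mice, 12.72, 13.25, 12.51, 12.28 and 12.50 in the IMO-3100 mice, 12.73, 13.01, 12.46, 11.66 and 11.40 in the saline mice and 7.28, 9.61, 11.01, 12.15 and 11.47 in the naïve mice. Mx2 (1419676_at) had 3.12, 4.07, 4.19, 3.40 and 4.72 in the IMO-8400 mice, 5.61, 6.74, 5.10, 4.07 and 4.86 in the IMO-3100 mice, 4.67, 5.59, 4.06, 3.49 and 3.19 in the saline mice and 2.02, 2.02, 2.71, 4.04 and 3.33 in the naïve mice. Mx2 was the dimmest member named here, with 3 naïve mice below 3 and so near background, at or near the floor of the scale. The log2 fold change was 1.95 (SE 0.64, adjusted p = 0.0189) for Mx1 and 1.38 (SE 0.52, adjusted p = 0.0386) for Mx2.

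Of the 5 nucleic acid sensors, Ddx58 (RIG-I), Ifih1 (MDA5), Dhx58 (LGP2) and Zbp1 were called higher in saline skin and Eif2ak2 (PKR) was not. Zbp1 (1429947_a_at), a sensor of Z-form nucleic acids that can start necroptosis, was at 10.76, 11.45, 11.26, 10.92 and 11.96 in the IMO-8400 mice, 12.38, 12.96, 12.19, 11.90 and 12.24 in the IMO-3100 mice, 13.41, 13.41, 13.15, 12.66 and 12.16 in the saline mice and 7.48, 9.85, 11.21, 11.75 and 11.23 in the naïve mice. All saline mice were above all naïve mice and above all IMO-8400 mice. Its difference from naïve skin was 2.65 (SE 0.57, adjusted p = 0.0011), 6.28-fold. Ifih1 (1426276_at), a sensor of long double-stranded RNA, read 10.62, 11.18, 11.09, 10.64 and 11.29 in the IMO-8400 mice, 11.75, 12.08, 11.60, 11.33 and 11.58 in the IMO-3100 mice, 12.00, 12.02, 11.69, 11.21 and 11.16 in the saline mice and 9.03, 10.26, 10.90, 11.19 and 11.13 in the naïve mice. Naïve replicate 19 alone reached the lower saline mice, and Ifih1 was higher by 1.11 (SE 0.32, adjusted p = 0.00946). Eif2ak2 (1422005_at), the kinase that halts translation on double-stranded RNA, measured 10.34, 10.21, 10.51, 10.30 and 10.73 in the IMO-8400 mice, 11.21, 11.03, 10.92, 10.62 and 11.03 in the IMO-3100 mice, 11.13, 11.30, 10.82, 10.39 and 10.38 in the saline mice and 9.19, 10.05, 10.59, 10.91 and 10.71 in the naïve mice. Its saline and naïve mice overlapped and the difference was 0.51 (SE 0.26, adjusted p = 0.115). The RNA helicases Ddx58 and Dhx58 were higher by 1.82 (SE 0.41, adjusted p = 0.0017) and by 1.97 (SE 0.52, adjusted p = 0.00501).

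**Figure D3:**
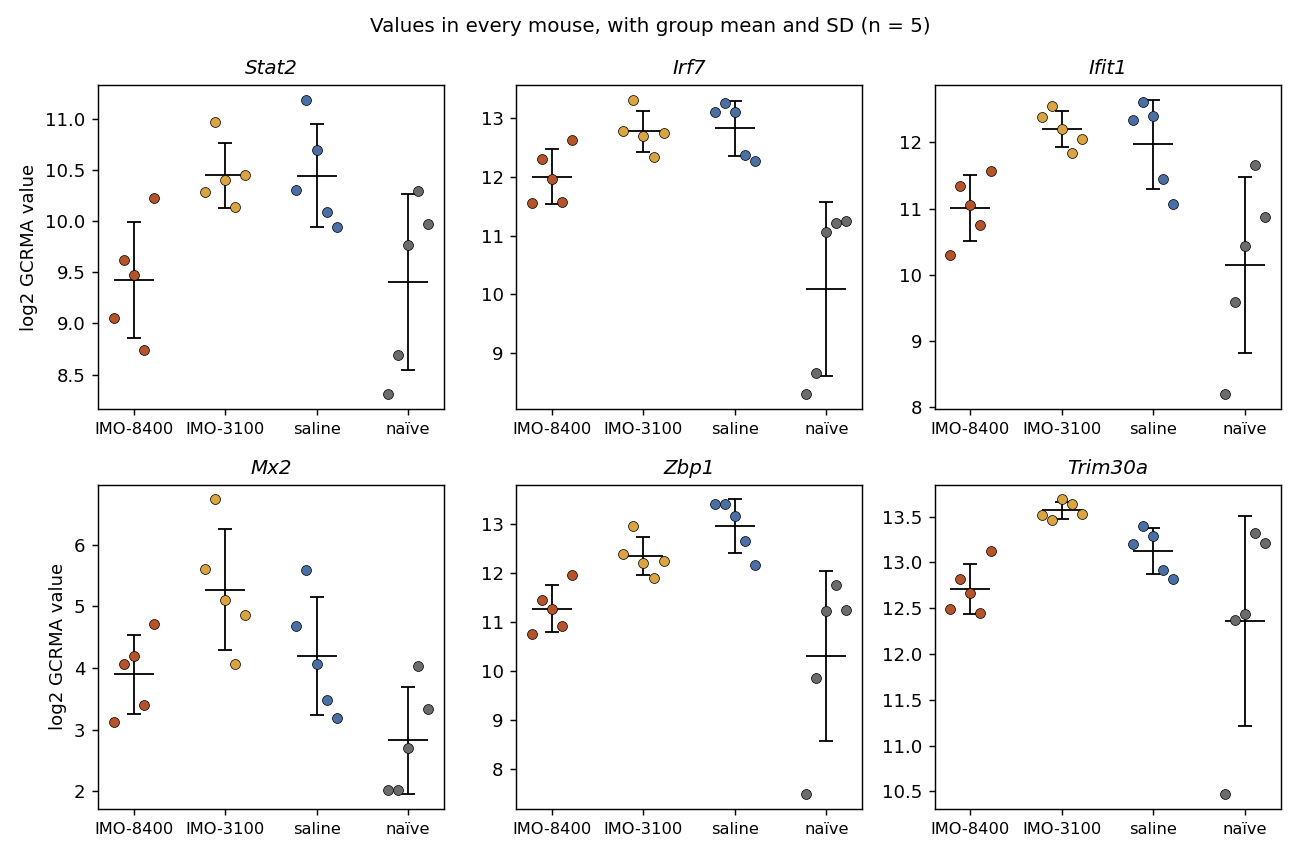
Log2 expression of Stat2, Irf7, Ifit1, Mx2, Zbp1 and Trim30a in each mouse (points) with the group mean (line) for IMO-8400, IMO-3100, saline and naïve skin. Naïve replicates 16 and 17 are the lowest naïve mice in each panel, the IMO-8400 means lie below the saline means in all 6 genes, and the 5 Trim30a values of IMO-3100 lie above all 5 of saline.

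The PARP family members and DTX3L, which add ADP-ribose or ubiquitin to proteins and act together in interferon signalling, were called higher in 2 of 4 cases. Parp14 (1451564_at) had 12.32, 12.82, 12.85, 12.36 and 12.91 in the IMO-8400 mice, 13.46, 13.60, 13.17, 12.97 and 13.16 in the IMO-3100 mice, 13.04, 13.38, 12.97, 12.82 and 12.45 in the saline mice and 10.15, 11.65, 12.31, 12.42 and 12.48 in the naïve mice. Dtx3l (1435208_at) was at 12.55, 12.76, 12.54, 12.23 and 12.71 in the IMO-8400 mice, 12.97, 13.17, 13.11, 13.31 and 13.06 in the IMO-3100 mice, 12.94, 13.24, 13.01, 12.82 and 12.67 in the saline mice and 10.83, 11.86, 12.37, 12.57 and 12.88 in the naïve mice. In both genes naïve replicate 16 lay far below all saline mice and naïve replicate 20 within their range. Parp14 was higher by 1.13 (SE 0.33, adjusted p = 0.00992), while Dtx3l passed the FDR but not the 2-fold limit at 0.84 (SE 0.26, adjusted p = 0.0146). Parp9, the partner of DTX3L, was called at 1.19 (SE 0.32, adjusted p = 0.00623), and Parp12 fell short of the 2-fold limit at 0.90 (SE 0.24, adjusted p = 0.00489).

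Of the other antiviral effectors 4 of 6 were called higher in saline skin. Rsad2 (1436058_at), viperin, which makes a chain-terminating nucleotide, read 12.69, 13.49, 12.90, 12.59 and 13.34 in the IMO-8400 mice, 13.44, 13.82, 13.49, 13.37 and 13.41 in the IMO-3100 mice, 13.48, 13.74, 13.70, 12.96 and 12.39 in the saline mice and 9.18, 10.87, 12.24, 12.78 and 12.71 in the naïve mice. Naïve replicates 19 and 20 overlapped the saline mice, and the difference was 1.70 (SE 0.50, adjusted p = 0.0106). Trim30a (1451860_a_at), a regulator of TLR signalling in mice, measured 12.49, 12.82, 12.67, 12.45 and 13.12 in the IMO-8400 mice, 13.52, 13.46, 13.69, 13.64 and 13.53 in the IMO-3100 mice, 13.21, 13.40, 13.29, 12.92 and 12.82 in the saline mice and 10.47, 12.37, 12.44, 13.32 and 13.21 in the naïve mice. Naïve replicates 19 and 20 were within the saline range, and Trim30a was not called at 0.76 (SE 0.36, adjusted p = 0.0909). Bst2 (tetherin, which holds budding virus at the cell surface), Ifi47 and Cmpk2 were called at 1.22 (SE 0.40, adjusted p = 0.0181), 1.64 (SE 0.43, adjusted p = 0.00515) and 1.35 (SE 0.51, adjusted p = 0.039), and Samd9l passed the FDR alone at 0.87 (SE 0.32, adjusted p = 0.0357).

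The remaining interferon-stimulated genes of less defined role gave 3 of 5 called higher. Ifi35 (1445897_s_at) had 12.70, 12.97, 12.82, 12.74 and 13.13 in the IMO-8400 mice, 13.48, 13.76, 13.27, 13.03 and 13.30 in the IMO-3100 mice, 13.69, 13.69, 13.46, 13.29 and 13.02 in the saline mice and 11.87, 12.56, 13.13, 13.36 and 13.04 in the naïve mice. Ifi27l2a (1426278_at) was at 13.93, 14.13, 14.05, 14.09 and 14.19 in the IMO-8400 mice, 14.52, 14.40, 14.59, 14.25 and 14.44 in the IMO-3100 mice, 14.45, 14.41, 14.26, 14.18 and 14.07 in the saline mice and 13.23, 13.69, 14.35, 14.40 and 14.55 in the naïve mice. Ifi27l2a was high in every mouse, with the smallest difference of the 36 members at 0.23 (SE 0.19, adjusted p = 0.324). Ifi35 passed the FDR but not the 2-fold limit at 0.64 (SE 0.22, adjusted p = 0.0263), on a probe-set that can match more than 1 gene. The most variable probe-set of Ifi35 was called higher in saline skin at 1.46 (adjusted p = 0.00122 in limma). In IMO-8400 against saline skin that probe-set was called lower at -1.04 (adjusted p = 0.0204). Epsti1, Rtp4 and Xaf1 were called at 2.22 (SE 0.56, adjusted p = 0.0035), 1.51 (SE 0.41, adjusted p = 0.00662) and 1.14 (SE 0.37, adjusted p = 0.0186).

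Under IMO-3100 the members stayed at about the level of saline skin. Against saline skin no member was called in either direction, none had an unadjusted p under 0.05 in limma, and fits on these 2 groups alone or on the 3 IL-23 groups alone called none either. Over all tested probe-sets 2.69% were called higher and 3.73% lower with all groups in the fit, 2.63% and 3.81% on the 2 groups alone, and 2.88% and 3.98% on the 3 groups alone. The median log2 fold change was 0.23 over the members (28 positive, 8 negative) and 0.01 over all tested probe-sets, with members between -0.62 (Zbp1) and 1.08 (Mx2). Mx2 differed by 1.08 (SE 0.52, adjusted p = 0.135) and Zbp1 by -0.62 (SE 0.57, adjusted p = 0.458). A 95% interval of -0.02 to 2.17 for Mx2 and of -1.08 to 0.99 for Irf7, whose difference was -0.05, shows how wide a change these 5 mice a group leave possible. Trim25 and Trim30a had all IMO-3100 mice above all saline mice, beside 8.46% of all tested probe-sets, and Trim30a differed by 0.44 (SE 0.36, adjusted p = 0.394).

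**Figure D4:**
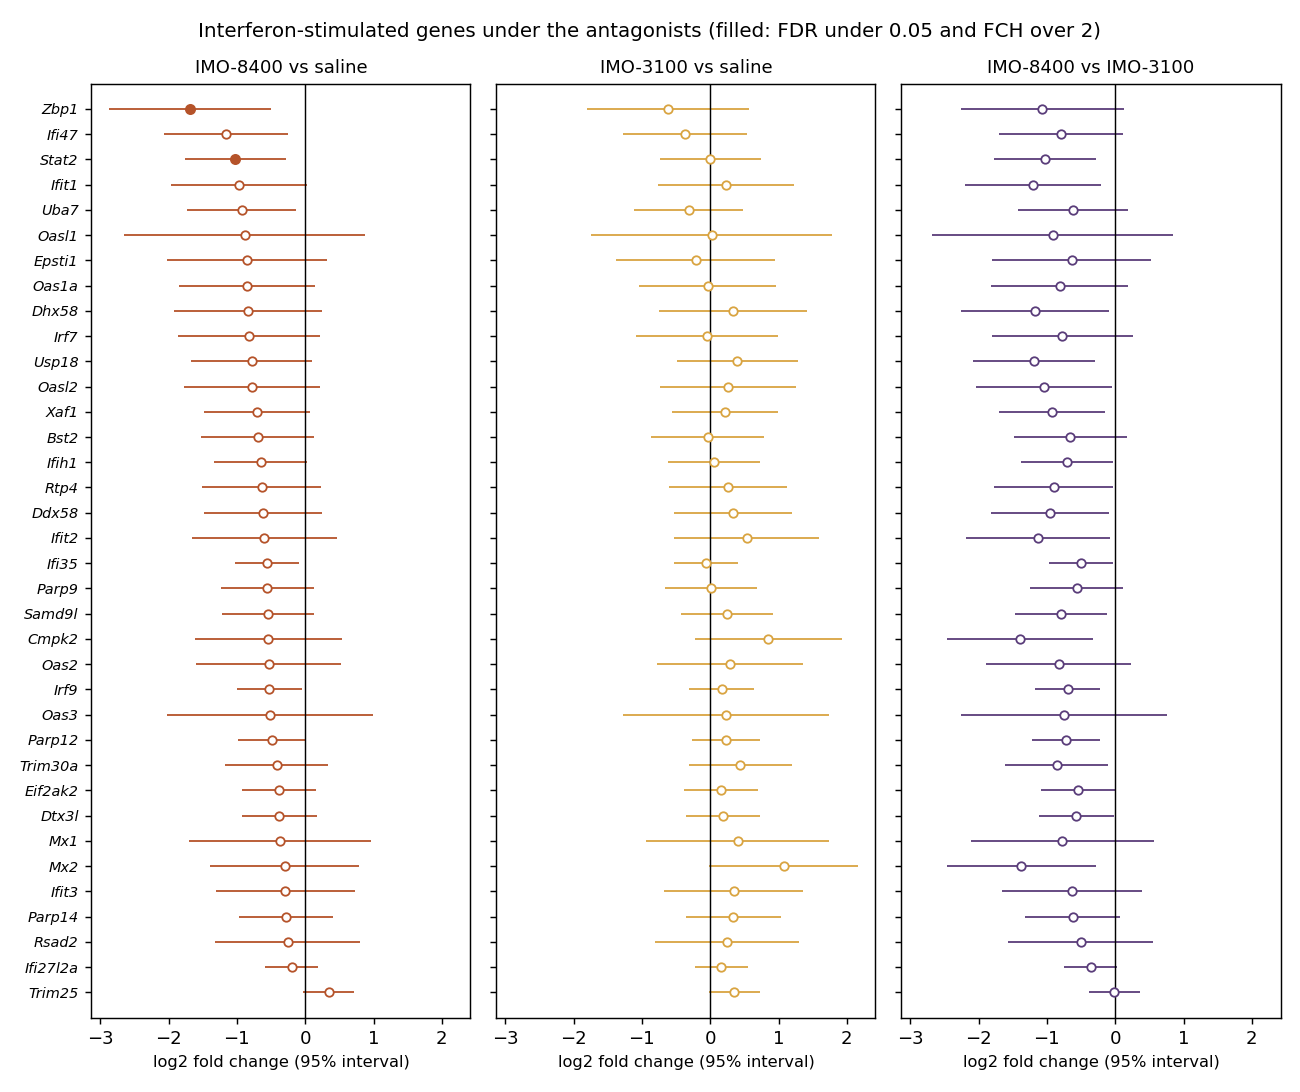
Log2 fold change of each member with its 95% confidence interval, with 1 panel each for IMO-8400 and IMO-3100 set against saline and a panel on the right for IMO-8400 set against IMO-3100, with called members filled. Stat2 and Zbp1, in the left panel, are the only filled points, and all 36 points of the right panel lie on the negative side of 0.

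Under IMO-8400 nearly all members had lower means than with saline, and few of them were called. A negative log2 fold change was found in 35 of 36 members (Trim25 was the exception), with a median of -0.58 over the members and 0.01 over all tested probe-sets. Only 2 of 36 were called lower, Stat2 and Zbp1, and none higher, beside 3.59% of all tested probe-sets called lower and 4.46% called higher. On the probe-set with the highest mean, the share of members called lower was thus near that of all probe-sets. Over all 61 probe-sets of the members, of which 60 passed the filter, 7 were called lower. With the most variable probe-set of a gene, Stat2, Uba7, Trim25, Dhx58 and Ifi35 were called lower. Stat2 differed by -1.02 (SE 0.35, adjusted p = 0.0391) with a 95% interval of -1.76 to -0.28, and its second probe-set by -1.31 (adjusted p = 0.0338). Zbp1 differed by -1.69 (SE 0.57, adjusted p = 0.0335) with a 95% interval of -2.88 to -0.50, while its second probe-set, at -1.49, was not called (adjusted p = 0.0997). Each of the 2 calls held in 3 of the 10 fits that left out 1 mouse of either group, with adjusted p between 0.0193 and 0.106 for Stat2 and between 0.0286 and 0.0763 for Zbp1.

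Short of the call on the probe-set with the highest mean, Ifi47, Uba7 and Irf9 had all IMO-8400 mice below all saline mice, as Zbp1 had. That makes 4 of 36 members, no larger a share than the 12.8% of all tested probe-sets. In Irf9 the highest IMO-8400 mouse (10.5998) and the lowest saline mouse (10.6018) were almost equal. Ifi47, an interferon-inducible GTPase, read 11.62, 12.18, 12.21, 11.77 and 12.44 in the IMO-8400 mice, 12.97, 13.08, 12.80, 12.51 and 12.81 in the IMO-3100 mice, 13.35, 13.71, 13.27, 13.15 and 12.55 in the saline mice and 9.37, 11.22, 12.43, 12.43 and 12.39 in the naïve mice. The highest IMO-8400 mouse lay just under the lowest saline mouse, and the difference was -1.16 (SE 0.43, adjusted p = 0.0523). Uba7 differed by -0.93 (SE 0.38, adjusted p = 0.0769) and Irf9 by -0.52 (SE 0.23, adjusted p = 0.0926). The most variable probe-set of Uba7 was called lower at -1.27 (adjusted p = 0.0478 in limma). In the other direction Trim25 alone had all IMO-8400 mice above all saline mice, beside 12.4%, at 0.34 (SE 0.18, adjusted p = 0.157) on the probe-set with the highest mean. An unadjusted p under 0.05 was found in 6 members. Irf7 and Oasl1, the members furthest above naïve skin with saline, were not called here, with Irf7 at -0.82 (SE 0.49, adjusted p = 0.224) and Oasl1 at -0.89 (SE 0.84, adjusted p = 0.461). Fitted on the 3 IL-23 groups alone, an alternative added after the data were seen, 3 members were lower (Stat2 with adjusted p = 0.0132, Zbp1 with 0.000645 and Ifi47 with 0.000837), beside 4.1% of all tested probe-sets.

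Immune cell markers were also lower in part. The mean over 6 macrophage markers was 11.66, 11.95, 11.57, 10.98 and 12.03 in the IMO-8400 mice and lay between 12.10 and 12.56 in the saline mice. The median log2 fold change of the 6 markers was -0.60, with 3 at an unadjusted p under 0.05. Of these 1 was called lower, Itgam at -1.93 (adjusted p = 0.0499), while Fcgr1 was at -1.31 (adjusted p = 0.0685) and Cd14 at -1.13 (adjusted p = 0.0538). The other 3, Cd68, Csf1r and Adgre1, were at -0.03, 0.04 and -0.07. The T cell mean was between 9.60 and 10.10 in the IMO-8400 mice, against 10.09 to 10.54 in the saline mice. Of the 6 T cell markers 5 were negative, with 2 called lower, while Cd4 went the other way at 1.06 and was not called. Of the genes of NK and cytotoxic cells 3 of 5 were called lower (median -1.56, means 8.56 to 9.53 in the IMO-8400 mice, against 9.86 to 11.19 in the saline mice), as were 3 of 3 neutrophil genes (median -2.35, means 5.03 to 6.02, against 7.71 to 9.12). None of 4 B cell genes was called in limma, and none had an unadjusted p under 0.05 (median -0.12). The 6 plasmacytoid dendritic cell markers had 4 positive and 2 negative log2 fold changes, with a median of 0.23. None of them was called, and 3 had an unadjusted limma p under 0.05. Their mean was between 7.79 and 8.31 in the IMO-8400 mice, against 7.68 to 8.05 in the saline mice. The part of these cell types in the members' difference was not tested.

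The antagonists, given at the same dose on the same days, were set against each other as 1 pair. All 36 members had a negative log2 fold change in IMO-8400 against IMO-3100 skin, from -0.01 (Trim25) to -1.39 (Cmpk2) with a median of -0.78, against a median of 0.02 over all tested probe-sets. The members are not independent of each other, since they moved together from mouse to mouse. IMO-3100 replicate 7 was the highest of its group in 31 of 36 members and replicate 9 the lowest in 31. IMO-8400 replicate 5 was the highest of its group in 27. On the probe-set with the highest mean no member was called in either direction with all 4 groups in the fit. Of all tested probe-sets 0.245% were called lower and 0.333% higher. Of the members 18 had an unadjusted limma p under 0.05, with no share of all tested probe-sets to set beside it. Over all 61 probe-sets, of which 60 passed the filter, 1 was called lower, the most variable one of Eif2ak2 at -1.18 (adjusted p = 0.0168). All IMO-8400 mice lay below all IMO-3100 mice in 17 of 36 members, beside 4.62% of all tested probe-sets. The mean over the 36 members was 10.93, 11.53, 11.37, 10.89 and 11.75 in the IMO-8400 mice, against 12.17, 12.47, 12.05, 11.78 and 12.02 in the IMO-3100 mice, 12.12, 12.45, 12.09, 11.58 and 11.33 in the saline mice and 8.64, 9.95, 11.01, 11.49 and 11.36 in the naïve mice. Every IMO-8400 mouse was thus below every IMO-3100 mouse on this mean, and IMO-8400 replicate 5 was above saline replicates 14 and 15.

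**Figure D5:**
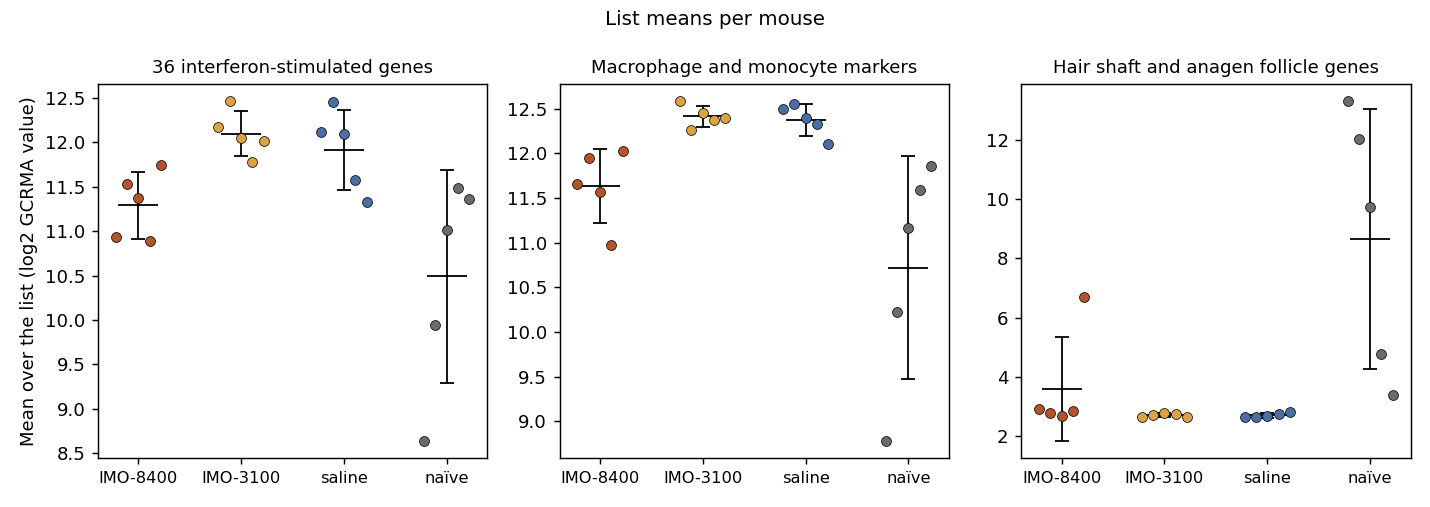
Mean log2 expression per mouse over the 36 members, over 6 macrophage markers and over 11 hair genes (points), with the group mean and SD, for IMO-8400, IMO-3100, saline and naïve skin. The member mean was 11.29 ± 0.38 under IMO-8400, 12.10 ± 0.25 under IMO-3100, 11.91 ± 0.45 with saline and 10.49 ± 1.20 in naïve skin (SD, n = 5 each), and the naïve mice spread most in all 3 lists.

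The calls between the antagonists changed with the groups in the fit. The spread of the members was unlike in the groups: the median of their standard deviations was 0.39 under IMO-8400, 0.28 under IMO-3100, 0.45 with saline and 1.18 in naïve skin, and a fit on all 4 groups shares 1 spread. On the 2 antagonist groups alone 8 members were called lower under IMO-8400 (Stat2, Usp18, Oasl2, Ifit1, Ifit2, Dhx58, Zbp1 and Cmpk2), beside 0.64% of all tested probe-sets. On the 3 IL-23 groups alone 7 were (the same 8 without Ifit2), beside 0.701%, with adjusted p = 0.0376 for Stat2, 0.0308 for Usp18, 0.0166 for Oasl2, 0.0278 for Ifit1, 0.0255 for Dhx58, 0.0322 for Zbp1 and 0.0199 for Cmpk2.

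Cmpk2, a mitochondrial nucleotide kinase next to Rsad2 and named here after its values were seen, measured 8.58, 9.76, 9.33, 8.75 and 9.77 in the IMO-8400 mice, 10.49, 11.05, 10.66, 10.29 and 10.67 in the IMO-3100 mice, 10.17, 10.51, 9.97, 9.55 and 8.70 in the saline mice and 6.26, 7.76, 9.09, 9.99 and 9.06 in the naïve mice. The IMO-8400 mice all lay below the IMO-3100 mice but overlapped the saline mice. With all 4 groups in the fit the difference was -1.39 (SE 0.51, adjusted p = 0.123) with a 95% interval of -2.47 to -0.32. Ifit1 differed by -1.20 (SE 0.47, adjusted p = 0.15) with an interval of -2.19 to -0.21, Usp18 by -1.18 (SE 0.42, adjusted p = 0.116) and Stat2 by -1.02 (SE 0.35, adjusted p = 0.106). Trim30a differed by -0.86 (SE 0.36, adjusted p = 0.175).

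The role groups kept 1 direction between the antagonists, in genes that moved together from mouse to mouse. The median log2 fold change in IMO-8400 against IMO-3100 skin was lowest in the IFIT family (-1.13) and the Mx GTPases (-1.07), followed by the nucleic acid sensors (-0.95), the OAS family (-0.83), the other antiviral effectors (-0.79), the signalling factors (-0.77), the genes of less defined role (-0.64), the ISG15 enzymes (-0.62) and the PARP and DTX3L genes (-0.59). Against saline the same medians under IMO-8400 lay between -0.82 (signalling factors) and -0.33 (Mx GTPases), while under IMO-3100 they lay between 0.00 (signalling factors) and 0.74 (Mx GTPases). Differences between these groups of genes were not tested. The mean over the 6 macrophage markers was between 10.98 and 12.03 in the IMO-8400 mice, against 12.27 to 12.59 in the IMO-3100 mice, so these groups did not overlap. All 6 were negative with a median of -0.63, none was called in limma and 1 had an unadjusted p under 0.05. Itgam was at -2.26, Fcgr1 at -1.0, Cd14 at -0.79, Adgre1 at -0.48, Cd68 at -0.15 and Csf1r at -0.01. Of 4 B cell genes 3 were negative (Cd79b at -1.61, Ms4a1 at -1.56 and Cd22 at -0.88) and Blk was at 0.67, with all 4 at an unadjusted p under 0.05 and none called. The B cell mean, over these 4 and the untested Cd79a near background, was between 5.30 and 6.54 in the IMO-8400 mice. In the IMO-3100 mice it was between 6.32 and 6.92. The 6 plasmacytoid dendritic cell markers had 5 positive and 1 negative log2 fold change, with a median of 0.07 and none called. The part of these markers' cells in the members' difference was not tested.

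Set against naïve skin, the antagonist groups gave unlike counts, which share the naïve arrays with each other and with the saline comparison. Under IMO-3100 31 of 36 members were called higher, beside 4.9% of all tested probe-sets called higher and 4.55% called lower, with a median log2 fold change of 1.57 over the members and -0.05 over all tested probe-sets. All IMO-3100 mice lay above all naïve mice in 28 of 36, beside 7.68%. Under IMO-8400 1 of 36 was called higher, Irf7 by 1.90 (SE 0.49, adjusted p = 0.0132), beside 3.6% called higher and 2.43% called lower, and the median was 0.79 over the members and -0.03 over all tested probe-sets. Irf7 and Trim25 had all IMO-8400 mice above all naïve mice, beside 6.18%, and 14 members had an unadjusted p under 0.05. Without naïve replicates 16 and 17, 8 members were called higher under IMO-3100 (median 0.73), beside 3.37% of all tested probe-sets. On the IMO-3100 and naïve groups alone 10 were, beside 3.46%, and with the hair covariate none in limma, beside 2.39% and with 3 at an unadjusted p under 0.05. Under IMO-8400 the fit without naïve replicates 16 and 17 called none, beside 2.75% of all tested probe-sets, with 3 at an unadjusted p under 0.05, 18 positive, 18 negative and a median of -0.02. The fit on the 2 groups alone called none, beside 2.35%, and so did the fit with the hair covariate, beside 2.44% and with 1 member at an unadjusted p under 0.05.

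The wider pathway was read from 51 further genes, of which 42 had a probe-set and 34 passed the filter. In saline against naïve skin 11 of 34 were called higher and none lower, beside 7.58% of all tested probe-sets called higher and 8.92% called lower. At the FDR alone 21 passed. Without naïve replicate 16 there were 8 called higher, with no share of all tested probe-sets given here. Without naïve replicates 16 and 17 there were 4 of 34, beside 6.78% of all tested probe-sets. With the hair covariate 1 was called higher, beside 6.49%, and 1 lower. Most ligands were near background: of 9 type I interferon genes with a probe-set 8 were below 3 on all 20 arrays (Ifnz, between 7.18 and 8.91, was the exception), and Ifnb1, the gene of interferon-beta, reached at most 2.77. Both receptor chains passed the FDR but not the 2-fold limit, with 10.71 ± 0.22 in IMO-8400 skin, 10.63 ± 0.09 in IMO-3100 skin, 11.12 ± 0.15 in saline skin and 10.25 ± 0.35 in naïve skin (SD, n = 5 each) and a log2 fold change of 0.87 (SE 0.14, adjusted p = 0.000114) for Ifnar1, and with 10.77 ± 0.23 in IMO-8400 skin, 10.91 ± 0.16 in IMO-3100 skin, 11.25 ± 0.23 in saline skin and 10.27 ± 0.82 in naïve skin (SD, n = 5 each) with 0.98 (SE 0.27, adjusted p = 0.00678) for Ifnar2. The kinases Jak1 and Tyk2 differed by 0.29 (SE 0.20, adjusted p = 0.239) and by 0.37 (SE 0.16, adjusted p = 0.0606).

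Irf8, a transcription factor of myeloid and dendritic cells, averaged 11.27 ± 0.33 in IMO-8400 skin, 11.29 ± 0.16 in IMO-3100 skin, 11.51 ± 0.28 in saline skin and 9.48 ± 1.31 in naïve skin (SD, n = 5 each) and was called higher by 2.03 (SE 0.41, adjusted p = 0.000758). Socs3, an inhibitor of cytokine signalling through JAK kinases, averaged 10.73 ± 0.42 in IMO-8400 skin, 11.20 ± 0.30 in IMO-3100 skin, 11.72 ± 0.33 in saline skin and 9.92 ± 0.50 in naïve skin (SD, n = 5 each) and was called higher by 1.81 (SE 0.24, adjusted p = 1.34e-05). Herc6, which attaches ISG15 in mice, and Slfn8, of the Schlafen family, were called higher by 1.82 (SE 0.62, adjusted p = 0.0221) and by 1.80 (SE 0.47, adjusted p = 0.0047). Without naïve replicates 16 and 17 Irf8 (1.28) and Socs3 (1.75) were still called, whereas Herc6 (0.65, adjusted p = 0.183) and Slfn8 (0.90, adjusted p = 0.0272) were not. The difference in Herc6 was 1.10 without naïve replicate 16, and 1.67 and not called (adjusted p = 0.0548) without naïve replicate 17. These genes stand for the inhibitors, factors and further stimulated genes of the pathway. The last of these gave 7 of 20 called higher, beside 7.58% of all tested probe-sets.

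Under IMO-8400 33 of the 34 tested pathway genes had a negative log2 fold change against saline. Only 1 was called lower, beside 3.59% of all tested probe-sets. It was Nmi, an interferon-inducible partner of IFI35, which was named after its values were seen. Nmi averaged 11.50 ± 0.27 in IMO-8400 skin, 12.00 ± 0.34 in IMO-3100 skin, 12.75 ± 0.41 in saline skin and 11.18 ± 0.68 in naïve skin (SD, n = 5 each) and differed by -1.24 (SE 0.27, adjusted p = 0.00287). Socs3 passed the FDR but not the 2-fold limit at -0.996 (SE 0.24, adjusted p = 0.00523), and Herc6 was at -1.39 (SE 0.62, adjusted p = 0.0992). Under IMO-3100 none of the 34 was called against saline in limma, beside 2.69% of all tested probe-sets called higher and 3.73% lower. The fits on 2 groups alone (2.63% and 3.81%) or on 3 groups alone (2.88% and 3.98%) called none of them either. There were 8 at an unadjusted limma p under 0.05 and 4 past the FDR alone, among them Ifnar1 at -0.49 (SE 0.14, adjusted p = 0.0174). Between IMO-8400 and IMO-3100 none was called with all 4 groups in the fit, beside 0.245% called lower and 0.333% called higher. An unadjusted limma p under 0.05 was found in 7. On the 2 groups alone 4 were called lower under IMO-8400, beside 0.64% of all tested probe-sets. Against naïve skin 13 of the 34 pathway genes were called higher under IMO-3100, beside 4.9% of all tested probe-sets. Under IMO-8400 1 was, Irf8 by 1.78 (SE 0.41, adjusted p = 0.00682), beside 3.6%.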

How the data were processed

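Total RNA of skin from 20 mice, each a separate animal, was hybridised to Affymetrix mouse4302 arrays, 1 per mouse. The authors computed log2 expression values with GCRMA, which corrects background by probe sequence, and deposited them per probe-set. GCRMA pulls dim probe-sets to a common floor, which shrinks their differences. Symbols came from the platform annotation, in which 34958 of 45101 probe-sets had 1 symbol, 932 several and 9211 none. Samples were grouped by the treatment label.

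From these log2 values, probe-sets above 2 in at least 3 arrays with a standard deviation above 0.1 were kept (30960), the filter of the study's methods. A model with 1 mean per group was fitted to all 4 groups in limma 3.58.1 (R 4.3.3), with moderated statistics, 2-sided p-values and Benjamini-Hochberg adjustment over all kept probe-sets, and a call needed an FDR below 0.05 and an FCH above 2. A value below 3 was taken as near background. The code was tested on simulated data with 200 changed probe-sets. Intervals are 95% intervals of the fit.

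Alternatives were no filter, a stricter filter (above 4 in at least 5 arrays), a floor of 4, a common 75th percentile, quantile normalisation, fits on the 2 groups compared alone, a trended and robust variance prior, the mean or the most variable probe-set of a gene, the mean over the hair genes as a covariate, each mouse left out in turn, and naïve replicates 16 and 17 left out. A fit on the 3 IL-23 groups was added after the data were seen. The members, gene lists and tests were chosen with earlier results of these data known.

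Full values are given for the 2 members of each role group with the highest mean, for the 3 members with the largest and the 3 with the smallest difference between saline and naïve skin, and for members called against that direction, of which there were none. Stat2, Ifit1, Uba7, Ifi47, Cmpk2 and Nmi were given values after these were seen, where they did not already meet this rule. Marker lists are given by counts and means. Promoter windows came from RefSeq (GRCm38.p6). Raw scanner files were not used here.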

Additional observations from a re-analysis of the deposited data

Results flagged for a closer look

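Over the 36 members and their mean in the 4 groups, 148 sets of 5 mice were searched for a mouse far from the other 4, and 3 were found, where chance alone marks about 1 in 20. Parp12 was 12.45 in IMO-3100 replicate 9, below the other 4 IMO-3100 mice, with a gap of 0.868 of the group's range. Rsad2 was 13.82 in IMO-3100 replicate 7, above the other 4, with a gap of 0.732 of the range. Trim25 was 12.71 in saline replicate 14, below the other 4 saline mice, with a gap of 0.724 of the range.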

How the results depend on the processing

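The count of members called moved with the naïve mice and with the groups in the fit. In saline against naïve skin 25 were called higher, against 7 on the 2 groups alone, 5 without naïve replicates 16 and 17 and 0 with the hair covariate (median 0.23). The shares of all tested probe-sets called higher were, in the same order, 7.58%, 6.47%, 6.78% and 6.49%. In IMO-3100 against naïve skin 31 were called higher, against 10, 8 and 0 in the same fits (median 0.45 with the covariate). The shares of all tested probe-sets were 4.9%, 3.46%, 3.37% and 2.39%. In IMO-8400 against naïve skin 1 was called higher, against 0 in all 3 of these fits, beside 3.6%, 2.35%, 2.75% and 2.44% of all tested probe-sets. The median was -0.21 with the covariate and -0.018 without naïve replicates 16 and 17. Other settings called 3 with the stricter filter, 2 after quantile normalisation, 3 with the trended prior, 2 with the mean of a gene's probe-sets and 3 with the most variable one. In IMO-8400 against saline skin 2 were called lower, against 0 with no filter, 1 with the floor, 1 with the covariate and 5 with the most variable probe-set, where Trim25 was reversed at -1.26. In IMO-8400 against IMO-3100 skin none was called lower (0.245% of all tested probe-sets), against 8 on the 2 groups alone (0.64%) and 7 on the 3 IL-23 groups (0.701%). With the most variable probe-set 1 was, Eif2ak2. Between IMO-3100 and saline skin no setting called a member. Some counts here and below stand without the share of all tested probe-sets in the same fit. For those, a shift of the whole array cannot be told apart.

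With each mouse left out in turn, 15 to 30 members were called higher in saline against naïve skin (median 0.82 to 1.66), with 15 without naïve replicate 16. In IMO-3100 against naïve skin 19 to 31 were (median 1.07 to 1.83), and in IMO-8400 against naïve skin 1 to 7 (median 0.27 to 1.00), with 7 without naïve replicate 19 or 20, 4 without naïve replicate 18 and 2 without IMO-8400 replicate 4. In IMO-8400 against saline skin 0 to 3 were called lower (median -0.77 to -0.45), with 0 without any of IMO-8400 replicates 1 to 4 or saline replicates 11 to 13. In IMO-8400 against IMO-3100 skin 0 were (median -0.90 to -0.66), and in IMO-3100 against saline skin 0 in either direction (median 0.11 to 0.34). Fits with fewer mice differ both in the number of mice and in which mice they hold, and counts moved in either direction. The cause of these changes was not tested. No paired analysis was possible because the groups share no replicate numbers. Signal over background limits Mx2 and the ligands most.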

Other observations

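Markers of other cells were called lower under both antagonists, in comparisons that share the saline mice. Of the 3 neutrophil genes tested, Csf3r, Cxcr2 and Mmp8, all 3 were called lower in IMO-8400 than in saline skin and 2 in IMO-3100 than in saline skin. The neutrophil mean was between 5.03 and 6.02 in the IMO-8400 mice and between 5.54 and 6.11 in the IMO-3100 mice, against 7.71 to 9.12 in the saline mice and 2.76 to 4.73 in the naïve mice. Mmp8 lay at the floor in the IMO-3100 and naïve mice and below 3 in 4 of the 5 IMO-8400 mice, so its size of change has only a bound. Over the same mice the median log2 fold change over the 36 interferon-stimulated genes was -0.58 in IMO-8400 skin and 0.23 in IMO-3100 skin.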
